A study of Homo sapiens with 8 samples.

Results

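The genes described here are 10 regulators of the G1 phase of the cell cycle, taken from a fixed list of symbols, and all 10 have a row among the 14526 genes of the expression table. They are the D-type cyclins CCND1, CCND2 and CCND3, the E-type cyclins CCNE1 and CCNE2, the CIP/KIP inhibitors CDKN1A, CDKN1B and CDKN1C, and the INK4 inhibitors CDKN2C and CDKN2D. The study added sodium benzoate (SB) to cultured cells and asked how transcripts respond when histone lysine benzoylation rises. RNA-seq was carried out on 4 control replicates and 4 SB-treated replicates, all grown in DMEM with serum, and the treated cells received SB at 10 mM for 24 h before harvest. The labels name no genetic change in either group and give 1 cell line, HepG2, a line from a human liver carcinoma.

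D-type cyclins bind the kinases CDK4 and CDK6 in early G1 and start the phosphorylation of the retinoblastoma (RB) protein, which frees E2F transcription factors. E-type cyclins then bind CDK2 and drive entry into S phase. INK4 proteins bind CDK4 and CDK6 alone, while CIP/KIP proteins bind complexes of cyclin and kinase and block CDK2 above all. CDKN1A, which encodes p21, is the best known target of p53, and it is also known to respond to inhibitors of histone deacetylases.

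The values are RPKM, reads scaled to the counted length of the gene and to the library size. Levels of different genes may be set side by side only as far as that length holds. For CDKN2C it is 2478 bases, against 995 exon bases in the canonical GENCODE transcript, and for CCND3 3161 against 2026. For CCNE1 it is 1947 against 1954. The levels of CDKN2C and CCND3 beside other genes are therefore uncertain. The whole reads behind them were recovered from the table and summed to 36990091 to 44878446 per library over its genes. Reads outside these genes are not in the sums. Each of the 80 values of the 10 genes rests on 87 to 8810 reads. Groups were compared with limma after taking log2(RPKM + 1), and p-values were adjusted by the Benjamini-Hochberg method over the whole table. For genes of low RPKM the added 1 makes a log2 fold change smaller than that of the RPKM itself. The series description names biological replicates without saying how the cultures were separated, so p-values measure the spread between these samples. Of 20 genes that mark hepatocytes, ALB, APOA1, AFP and HNF4A among them, 18 have no row in the table, and TF, which has one, was low, at 0.192 ± 0.0188 RPKM (SD, n = 4) in the controls. The labelled cell type is therefore not borne out by its defining markers.

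Control replicate 1 stood apart from the other controls. It was the control farthest from the median for 67.0% of all genes. Among the genes described here it lay over 0.2 on the log2 scale from the mean of the other controls for 6, lower for CCND2, CCND3 and CDKN1A and higher for CCNE2, CDKN1B and CDKN2C. It lay within 0.1 for CCND1, CCNE1, CDKN1C and CDKN2D. Each change below is therefore also given without this library where that alters the call.

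The promoters of CDKN1A, which rose most, and of CCNE1, an E-type cyclin that fell, are shown because these 2 G1 regulators went in opposite directions and both hold several GC boxes. RefSeq promoter sequences (GRCh38.p14) matched 6 of the 10 genes, and CCND1, CCND2, CCNE2 and CDKN1C had no entry. The stretches are written 5′ to 3′ on the plus strand and hold no base of an annotated exon of the gene itself. That of CCNE1 ends just before the gene, while that of CDKN1A lies upstream of its RefSeq start but within its longer GENCODE span, downstream of the first exons of some transcripts. Capitals mark the GC box of the factor Sp1, GGGCGG, on either strand, with overlapping matches merged.
CDKN1A, chr6:36678464-36678709: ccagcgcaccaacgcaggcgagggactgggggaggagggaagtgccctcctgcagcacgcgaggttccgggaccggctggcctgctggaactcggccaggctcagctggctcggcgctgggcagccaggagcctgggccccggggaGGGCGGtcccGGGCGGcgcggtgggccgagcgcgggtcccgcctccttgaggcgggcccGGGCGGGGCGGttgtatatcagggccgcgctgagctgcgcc
CCNE1, chr19:29811741-29811990: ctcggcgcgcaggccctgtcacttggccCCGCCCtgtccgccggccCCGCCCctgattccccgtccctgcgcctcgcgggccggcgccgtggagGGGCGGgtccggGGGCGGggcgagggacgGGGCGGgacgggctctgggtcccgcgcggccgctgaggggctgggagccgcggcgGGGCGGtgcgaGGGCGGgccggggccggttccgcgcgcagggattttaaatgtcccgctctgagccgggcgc
The CDKN1A stretch holds 4 GC boxes and the CCNE1 stretch holds 7. At its far end the CDKN1A stretch overlaps an exon of DINOL, a long noncoding RNA on the opposite strand. In the 250 bases upstream, 5 of the 6 matched genes hold at least 1 GC box, as do 67.0% of the 10651 promoters of genes in the table. CDKN2C holds none. An E2F motif, searched as TTTCGCGC, TTTGGCGC, TTTCCCGC or TTTGCCGC on both strands, was found in 0 of the 6 and in 4.35% of all promoters. These matches describe letters in the window and are not measured binding sites.

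CDKN1A rose more than any other G1 regulator of the list, CCNE2 also rose, and CCND1, CCNE1, CDKN1C and CDKN2C fell. The remaining genes, CCND2, CCND3, CDKN1B and CDKN2D, did not pass the threshold. An adjusted p-value below 0.05 was thus reached by 6 of the 10 genes (60.0%), against 65.6% of all genes tested. By direction, 2 were higher, against 33.0% of all genes, and 4 were lower, against 32.6%. These shares lie near the background, so the number of changed genes is no result about this group. Control and SB-treated values were fully apart for 5 of the 10 genes, CCND1, CCNE1, CCNE2, CDKN1A and CDKN1C, against 61.5% of all genes. For these 5 the exact permutation test, two-sided, gave p = 0.0286, the smallest that 4 against 4 allows. Groups that are fully apart always give this value, so it adds nothing to the separation itself. RNA from a culture does not tell fewer cells in a phase of the cycle from less RNA per cell.

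**Figure D1:**
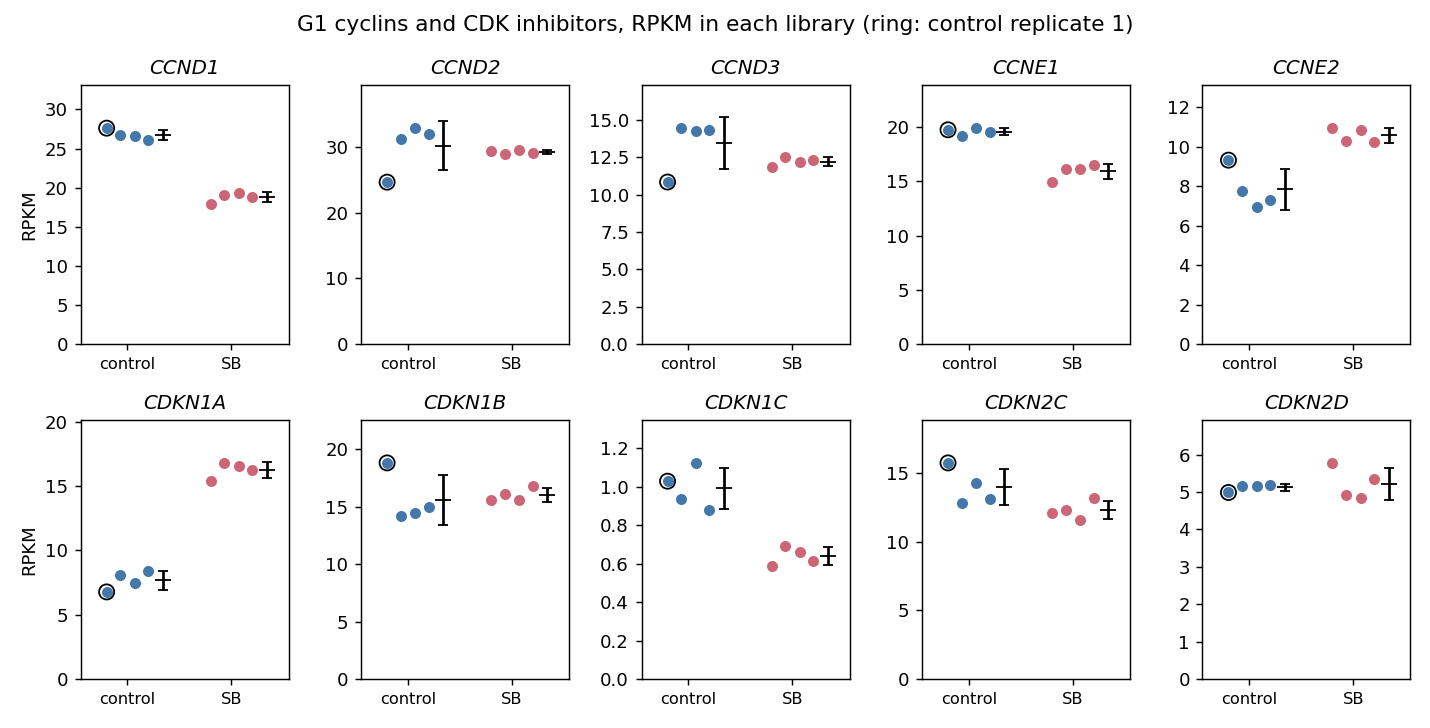
RPKM (vertical axes, from 0, a separate scale for each gene) of the 10 genes in each control (blue) and SB-treated (red) library, with the mean and SD of 4 replicates in black and a ring around control replicate 1. CDKN1A and CCNE2 lie higher in every SB-treated library, CCND1, CCNE1 and CDKN1C lie lower in every one, and the ringed library accounts for much of the control spread of CCND2, CCND3 and CDKN1B.

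Among the D-type cyclins, CCND1 fell while CCND2 and CCND3 did not pass the threshold with all libraries. CCND1, which encodes cyclin D1 and spans bases 69641156 to 69654474 of chromosome 11 in hg38 (plus strand), was at 27.6, 26.8, 26.7 and 26.1 RPKM in control replicates 1 to 4. In the SB-treated replicates it was at 18.0, 19.1, 19.3 and 18.8 RPKM. The groups lie far apart compared with their spread, since every SB-treated library is well under every control. The mean fell from 26.8 ± 0.628 to 18.8 ± 0.596 RPKM (SD, n = 4), by 29.8%. Its log2 fold change was -0.49 (SE 0.036, adjusted p by limma = 3.28e-06). Of all genes, 11.2% had a larger absolute change. CCND1 overlaps ORAOV1 (now LTO1) on the opposite strand, which was also lower, from 12.7 ± 0.390 to 10.5 ± 0.484 RPKM (SD, n = 4).

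CCND2, at bases 4269771 to 4305353 of chromosome 12 (plus strand), encodes cyclin D2 and had the highest mean RPKM of the 10 genes. The control values were 24.6, 31.1, 32.8 and 32.0 RPKM, and the SB-treated values were 29.3, 28.9, 29.5 and 29.0 RPKM. Control replicate 1 is the lowest of the 8 libraries and the other controls are the 3 highest. With all libraries the log2 fold change was -0.04 (95% interval -0.21 to 0.14, limma adjusted p = 0.703). It turned positive, to 0.07, when library sizes were taken without their inferred TMM factors, and to 0.0066 without control replicate 3. Without control replicate 1 it was -0.13 (95% interval -0.19 to -0.07, limma adjusted p = 0.00177), so this library decides the call.

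CCND3, at bases 41934934 to 42050357 of chromosome 6 (minus strand), encodes cyclin D3. It was at 10.8, 14.4, 14.3 and 14.3 RPKM in the controls and at 11.8, 12.5, 12.2 and 12.3 RPKM in the SB-treated replicates. The pattern is that of CCND2, with control replicate 1 under every other library and the other controls above all treated ones. Its log2 fold change was -0.12 (95% interval -0.30 to 0.06, limma adjusted p = 0.198) with all libraries and -0.22 (limma adjusted p = 5.28e-05) without control replicate 1. With log ratios corrected for length and GC content it was -0.17 (limma adjusted p = 0.00618), and without TMM factors it was -0.03 (limma adjusted p = 0.792). Transcripts of CCND3 have a mean GC content of 59.5%. In the fit without control replicate 1 all 3 D-type cyclins were thus lower, where 37.9% of all genes were lower and 37.6% were higher.

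The make-up of the D-type cyclins shifted with these values, given here at the counted lengths as a description with no test. CCND1 held 43.8% of their summed RPKM in control replicate 1 and 36.1% to 37.0% in the other controls, against 30.4% to 31.7% in the SB-treated replicates. CCND2 rose in share as CCND1 lost its part, from a mean of 42.7 ± 2.51% to 48.5 ± 0.778% (SD, n = 4). The summed level was 70.4 ± 4.92 RPKM in the controls and 60.2 ± 0.789 RPKM in the treated cells (SD, n = 4).

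The E-type cyclins moved in opposite directions. CCNE1 encodes cyclin E1 and spans bases 29811991 to 29824312 of chromosome 19 (plus strand). It was at 19.7, 19.2, 19.9 and 19.5 RPKM in the controls and at 14.9, 16.2, 16.1 and 16.5 RPKM in the SB-treated replicates. Both groups are tight and do not overlap. The log2 fold change was -0.28 (SE 0.038, adjusted p by limma = 1.36e-04), and the mean fell by 18.7%. The change was smaller, though still past the threshold, without TMM factors (-0.18) and with log ratios corrected for length and GC content (-0.17).

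CCNE2 encodes cyclin E2, a close relative of CCNE1 that binds the same kinase. Its control values were 9.33, 7.77, 6.95 and 7.32 RPKM, and its SB-treated values were 10.9, 10.3, 10.9 and 10.3 RPKM. Here control replicate 1 is the control nearest to the treated cells, and still lies under each of them. The log2 fold change was 0.40 (SE 0.073, adjusted p by limma = 0.00102), a mean 1.35 times that of the controls, and without control replicate 1 it was 0.47. CCNE2 overlaps INTS8 and NDUFAF6, which lie on the opposite strand. The library kit keeps strand, but the strand setting of the read counting is not given in the sources used here. INTS8, the more abundant neighbour, was lower in SB-treated cells, at 26.5 to 27.4 RPKM against 32.1 to 39.8 RPKM, and NDUFAF6 was lower too, at 5.74 to 6.03 RPKM against 6.17 to 6.66 RPKM.

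The ratio of CCNE1 to CCNE2, both per length, ran from 2.12 to 2.86 in the controls and from 1.36 to 1.61 after SB. CCNE2 thereby went from 28.5 ± 2.66% to 40.0 ± 1.77% of the E-type cyclin RPKM (SD, n = 4). The summed level of the pair was 27.4 ± 1.10 RPKM in the controls and 26.5 ± 0.477 RPKM in the treated cells (SD, n = 4), and its range in the treated cells, 25.9 to 27.0 RPKM, overlapped the control range of 26.8 to 29.1 RPKM.

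Of the CIP/KIP inhibitors, CDKN1A rose, CDKN1C fell and CDKN1B did not pass the threshold. CDKN1A spans bases 36676460 to 36687337 of chromosome 6 (plus strand). It was at 6.77, 8.09, 7.43 and 8.39 RPKM in the controls and at 15.4, 16.8, 16.6 and 16.2 RPKM in the SB-treated replicates. Every treated library lies far above the highest control, and control replicate 1 is the lowest of all. The mean rose from 7.67 ± 0.721 to 16.3 ± 0.617 RPKM (SD, n = 4), 2.12-fold. Its log2 fold change was 0.997 (SE 0.060, adjusted p by limma = 1.14e-06), and 0.95 without control replicate 1. It stood at rank 50 of 14526 genes by log2 fold change, and 0.558% of all genes had a larger absolute change.

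CDKN1B, at bases 12685498 to 12722369 of chromosome 12 (plus strand), encodes p27, an inhibitor that is regulated largely through its degradation. Its values were 18.8, 14.2, 14.4 and 15.0 RPKM in the controls and 15.6, 16.1, 15.6 and 16.8 RPKM in the SB-treated replicates. Control replicate 1 is the highest library and the other controls are the 3 lowest. The log2 fold change was 0.04 (95% interval -0.13 to 0.22, limma adjusted p = 0.647) with all libraries, 0.13 (limma adjusted p = 0.00635) without control replicate 1, 0.14 (limma adjusted p = 0.124) without TMM factors and 0.17 (limma adjusted p = 0.00679) after the correction for length and GC content. The mean GC content of its transcripts is 41.9%. GPR19, which overlaps CDKN1B on the opposite strand, was low, at 0.728 to 0.962 RPKM in the controls and 1.30 to 1.53 RPKM in the treated cells.

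CDKN1C encodes p57, is expressed from the maternal allele in many tissues, and spans bases 2883213 to 2885775 of chromosome 11 (minus strand). It was the least abundant of the 10 genes, at 1.03, 0.934, 1.12 and 0.881 RPKM in the controls, where its median was 148.5 reads. In the SB-treated replicates it was at 0.586, 0.690, 0.661 and 0.613 RPKM, with a median of 107 reads. No treated library reaches the lowest control, and the mean fell by 35.7%. On the log2(RPKM + 1) scale the change was -0.28 (SE 0.045, adjusted p by limma = 4.08e-04), and with a pseudocount of 0.1 it was -0.56, since the pseudocount of 1 is as large as its level. Its counted length, 3860 bases, exceeds the 2563 bases that the gene spans in GENCODE on chromosome 11. The reason for that excess was not tested. A counted length that is too long lowers an RPKM by the same factor in every library, so its level beside other genes is uncertain. The ratio of its RPKM between groups does not depend on that length, but the change of -0.28 does, through the added 1.

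In the controls CDKN1B held most of the CIP/KIP RPKM, 61.1% to 70.7%, and CDKN1A held 25.5% to 34.9%. In the treated cells the CDKN1A share was 48.3% to 50.6% and that of CDKN1B 47.4% to 49.9%. CDKN1C went from a mean of 4.10 ± 0.548% to 1.94 ± 0.116% (SD, n = 4). The summed level of the class was 24.3 ± 1.66 RPKM in the controls and 32.9 ± 0.967 RPKM in SB-treated cells (SD, n = 4).

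**Figure D2:**
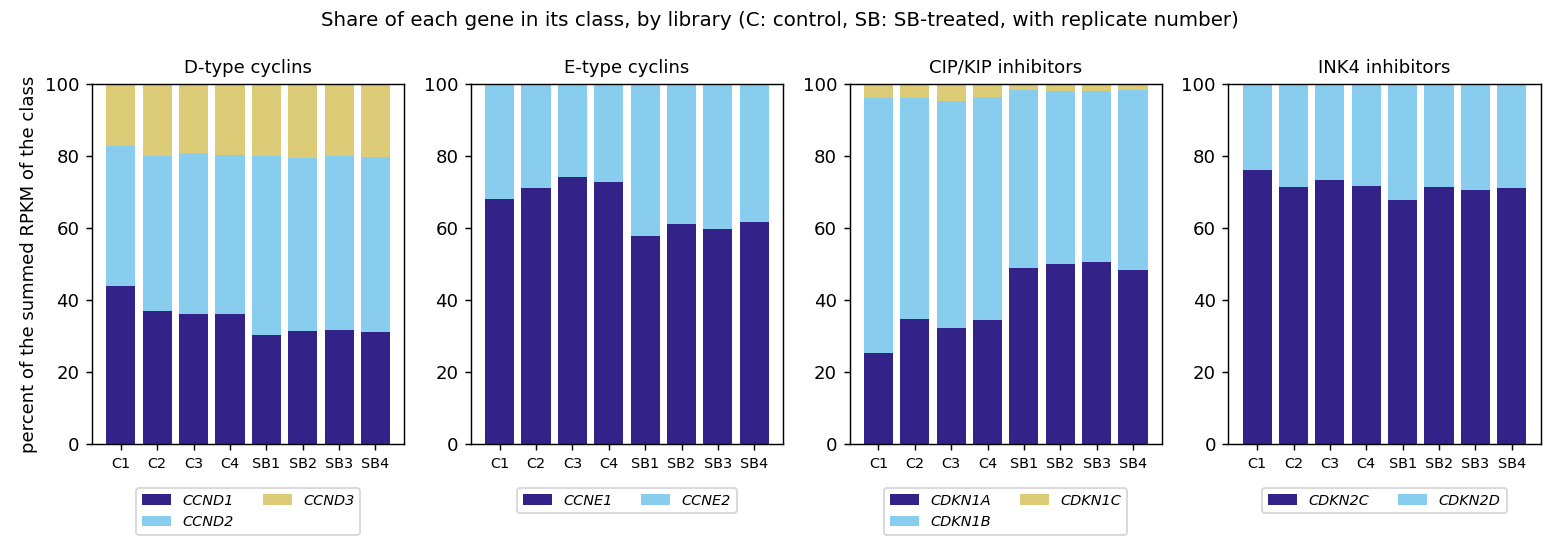
Percent of the summed RPKM of each class (vertical axis, 0 to 100) held by each of its genes in the 4 control (C1 to C4) and 4 SB-treated (SB1 to SB4) libraries. The CDKN1A part of the CIP/KIP class grows from at most 34.9% to at least 48.3%, the CCNE2 part of the E-type cyclins grows, the CCND1 part of the D-type cyclins shrinks, and the shares of the INK4 class overlap between the groups.

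Of the INK4 genes, CDKN2C passed the threshold narrowly and CDKN2D did not. CDKN2C encodes p18 and spans bases 50960745 to 50974634 of chromosome 1 (plus strand). Its values were 15.7, 12.8, 14.2 and 13.1 RPKM in the controls and 12.1, 12.3, 11.6 and 13.1 RPKM in the SB-treated replicates. The highest treated value lies within the control range, so the groups overlap. The log2 fold change was -0.17 (standard error 0.064), with a limma adjusted p of 0.0394 that is close to the threshold. It no longer passed without TMM factors (-0.07, limma adjusted p = 0.323), after the correction for length and GC content (-0.12, limma adjusted p = 0.149), or when control replicate 3 or SB-treated replicate 1, 2 or 3 was left out (-0.17 to -0.14, limma adjusted p from 0.0744 to 0.106). Its exact permutation test, two-sided, gave p = 0.0857.

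CDKN2D encodes p19 and spans bases 10566460 to 10569059 of chromosome 19 (minus strand). It was at 4.99, 5.16, 5.15 and 5.19 RPKM in the controls and at 5.78, 4.91, 4.83 and 5.35 RPKM in the SB-treated replicates, which surround the control values. The log2 fold change was 0.02 (95% interval -0.09 to 0.13, limma adjusted p = 0.745), and it turned to -0.02 without SB-treated replicate 1. Without TMM factors it was 0.11 (limma adjusted p = 0.0785).

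Without control replicate 1 the adjusted p-value was below 0.05 for 9 of the 10 genes, 3 higher and 6 lower, with CDKN2D as the exception. In that fit 37.6% of all genes were higher and 37.9% were lower. CDKN2C passed only narrowly, at -0.11 (limma adjusted p = 0.0483). CCND2 and CCND3 joined the lower genes and CDKN1B joined the higher ones. What sets that library apart was not tested.

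**Figure D3:**
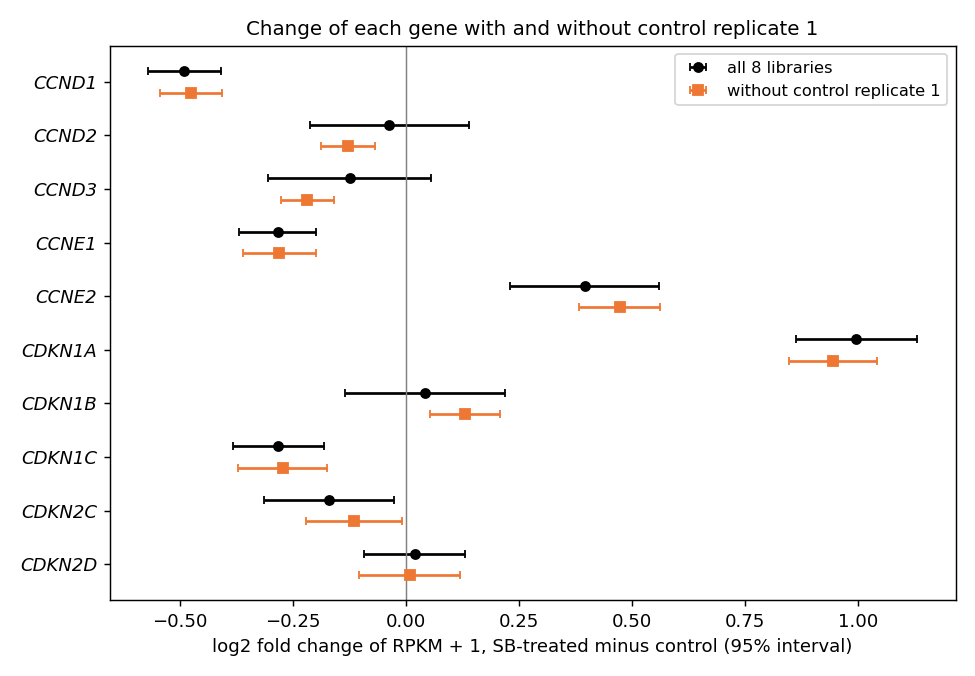
Log2 fold change of RPKM + 1, SB-treated minus control, with its 95% interval from limma, for the 10 genes with all 8 libraries (black circles) and without control replicate 1 (orange squares). The intervals of CCND2, CCND3 and CDKN1B cross 0 in the first fit and not in the second, while CDKN1A stays near 1 and CCND1 near -0.5.

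The order of the genes by RPKM rests on the counted lengths, so the places of CDKN2C, CCND3 and CDKN1C in it are uncertain. Ordered by RPKM in the controls, CCND2 and CCND1 were highest, at 30.1 and 26.8 RPKM, with ranges that overlap. They were followed by CCNE1 at 19.6, CDKN1B at 15.6, CDKN2C at 14.0 and CCND3 at 13.5 RPKM. The ranges of CDKN1B and CDKN2C overlap, as do those of CDKN2C and CCND3, while CCNE1 lies apart above CDKN1B and CCND3 lies apart above CCNE2. CCNE2 at 7.84 and CDKN1A at 7.67 RPKM also overlap, and CDKN2D at 5.12 and CDKN1C at 0.992 RPKM come last, each apart from the gene above. After SB the order was CCND2 at 29.2, CCND1 at 18.8, CDKN1A at 16.3, CDKN1B at 16.0, CCNE1 at 15.9, CDKN2C at 12.3, CCND3 at 12.2, CCNE2 at 10.6, CDKN2D at 5.22 and CDKN1C at 0.638 RPKM. CDKN1A, CDKN1B and CCNE1 then overlapped along this order, as did CDKN2C and CCND3. The ratio of CCND1 to CDKN1A, between 3.11 and 4.08 in the controls, was between 1.14 and 1.17 in the treated cells.

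The kinases that these proteins act on were all lower. The list used here held the G1 kinases, the complex that activates them, and CDC25A and CDC37. All 8 of its genes fell, with a median log2 fold change of -0.45, against a median of 0.00 and 32.6% lower over all genes. That background was not matched for level. Among genes with a mean of at least 1 RPKM, 3980 were higher and 4476 lower. CDK4 was at 139.9, 167, 162 and 167 RPKM in the controls and at 104, 105, 105 and 107 RPKM in the SB-treated replicates. Its log2 fold change was -0.59 (SE 0.056, adjusted p by limma = 1.54e-05), and the groups do not overlap. CDK6 had -0.44 and CDK2 had -0.33. CCNH, the cyclin of the CDK activating complex, had the largest fall of the list, at -0.80, from 34.3 ± 2.11 to 19.2 ± 0.970 RPKM (SD, n = 4). Its partners MNAT1 and CDK7 had -0.41 and -0.17. CDC25A, a phosphatase that activates CDK2, had -0.46, and CDC37, a chaperone partner of CDK4, had -0.50. With library sizes without TMM factors 7 of the 8 were lower, where 3357 of all 14526 genes were lower and 6253 were higher.

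Of the other INK4 genes, CDKN2B was higher and CDKN2A lower, and CDKN2A no longer passed the threshold without TMM factors. CDKN2A, whose locus encodes p16 and the unrelated protein ARF, was at 60.0, 60.7, 58.5 and 54.5 RPKM in the controls and at 45.8, 53.6, 53.2 and 52.9 RPKM in the treated replicates (log2 fold change -0.18, limma adjusted p = 0.0181). The values per gene do not tell the transcripts of p16 and ARF apart. Its treated values lie just under the controls, and its level is above that of all 10 genes described. CDKN2B, which encodes p15, rose from 1.83 ± 0.226 to 2.80 ± 0.0770 RPKM (SD, n = 4), or by 0.43 on the log2 scale (limma adjusted p = 9.11e-05).

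Among 13 RB pocket proteins and E2F factors, 6 were higher, 1 was lower and 6 did not pass the threshold. E2F7, a repressor of the family, had a log2 fold change of 0.25, and RBL2, the pocket protein p130, had 0.23. E2F3 had 0.09. RBL1, the pocket protein p107, was the one lower gene, at -0.14. Without TMM factors 8 were higher and RBL1 no longer passed, where 6253 of all 14526 genes were higher and 3357 lower. Without control replicate 1 there were 8 higher and 3 lower, where 37.6% of all genes were higher and 37.9% lower. Of 20 genes that E2F factors switch on for S phase, 14 were lower and 2 were higher, with a median of -0.25. Over all genes, not matched for level, 33.0% were higher and 32.6% lower, and the difference between these lists was not tested. CDC6, which loads the replicative helicase, fell from 79.2 ± 4.34 to 49.6 ± 1.06 RPKM (SD, n = 4), with a log2 fold change of -0.66, and MCM6, a helicase subunit, had -0.50. CDT1 had 0.28 and MYBL2 had 0.16. Without TMM factors the lower genes of this list numbered 10 and the higher ones 2, against 3357 and 6253 of all 14526 genes.

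Genes for the turnover of these proteins went both ways, 5 higher and 6 lower of 15. Over all genes 33.0% were higher and 32.6% were lower, the background for each list of this paragraph. CUL4B had a log2 fold change of -0.57 and its paralog CUL4A had 0.31. DTL, the receptor through which CUL4 ligases mark p21 for degradation, had -0.55. UHMK1, a kinase that phosphorylates p27, had 0.31. Of 15 transcription factors known to act on the genes described, 2 were higher and 6 were lower. EGR1 had 0.39 and SMAD4 had 0.21, while MYC had -0.49 and ZBTB17, its partner in repression of CDKN1A, had -0.28. Of 17 p53 target genes other than CDKN1A, 7 were higher and 5 were lower, with a median of -0.03. The numbers without control replicate 1 were 7 and 8, in a fit where 37.6% of all genes were higher and 37.9% were lower. TP53INP1 had 0.50 and BBC3 had 0.45, against -0.60 for AEN and -0.49 for FDXR.

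Of 5 genes for the mitotic cyclins and CDK1, 3 were higher, CCNB3 at 0.45, CCNF at 0.31 and CCNB1 at 0.09, and the other two, CCNB2 and CDK1, had -0.07 and -0.11 and did not pass the threshold. Of 14 other cyclins, 2 were higher, CCNL2 at 0.35 and CCNY at 0.13, and 4 were lower, with CCNG1 at -0.40 and CCNK at -0.36 as the largest falls. Of 10 proliferation markers, 3 were higher and 4 lower, against 33.0% and 32.6% of all genes. Without TMM factors these markers gave 4 higher and 2 lower, and the other cyclins 4 higher and 4 lower. Over all 14526 genes 6253 were then higher and 3357 lower. MKI67 rose from 28.6 ± 1.17 to 39.8 ± 0.844 RPKM (SD, n = 4), with a log2 fold change of 0.46, and PLK1 had 0.42. AURKB had -0.30 and TPX2 had -0.23. Over the 119 genes of all these lists 31 were higher and 49 were lower. Without control replicate 1 the numbers were 37 and 62, where 37.6% of all genes were higher and 37.9% lower. Without TMM factors the numbers were 40 and 36, so the balance between directions depends on the scaling. Under it the median log2 ratio of all genes moved from 0.01 to 0.11. Of the calls in these lists 52.6% were then higher, against 65.1% of the calls over all genes. With TMM factors the shares were 38.8% and 50.2%, so the lists pooled had the smaller share of higher calls under both scalings. Among single lists with TMM factors, the kinase list had 0 higher and 8 lower and the E2F targets 2 and 14. The RB pocket proteins and E2F factors had 6 and 1, and the mitotic cyclins and CDK1 had 3 and 0. The difference from all genes was not tested.

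**Figure D4:**
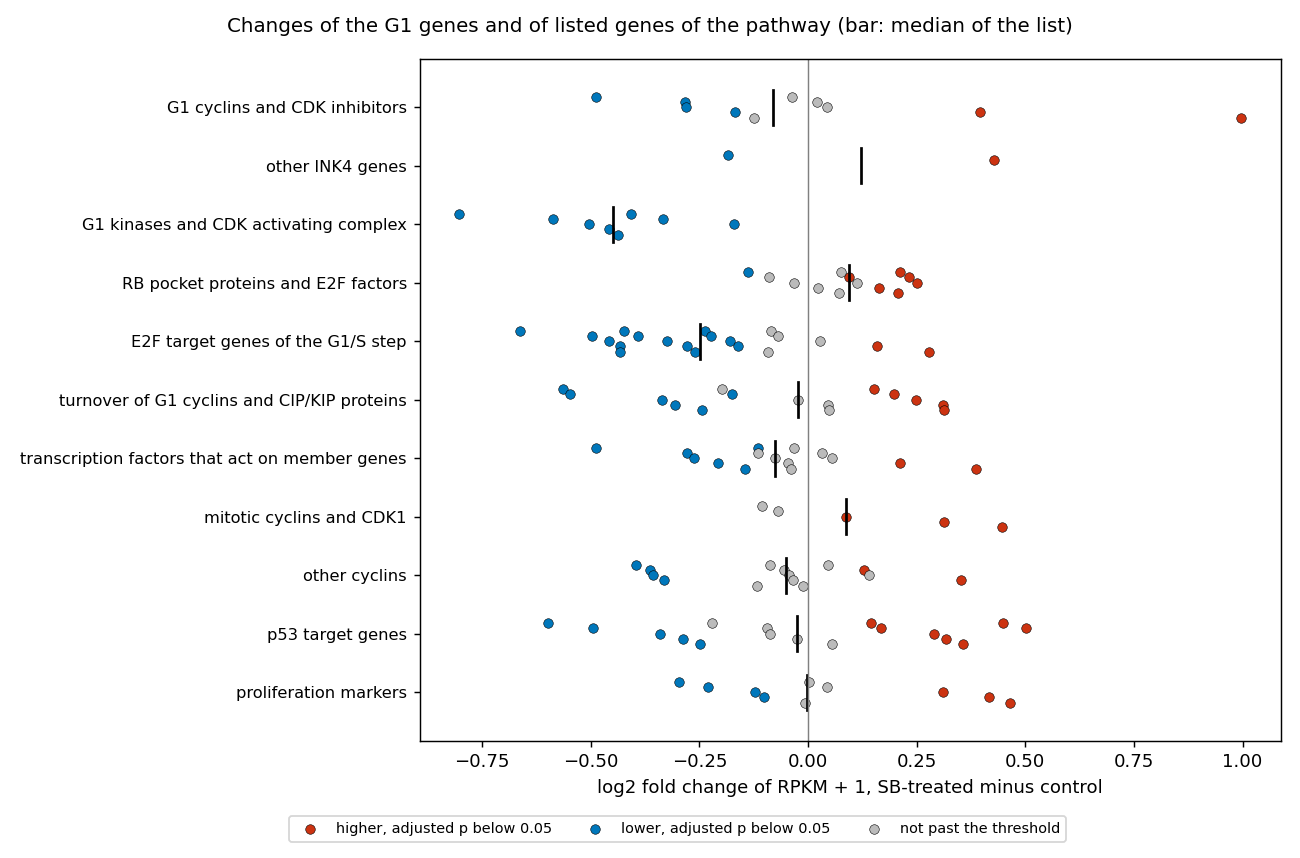
Log2 fold change of RPKM + 1, SB-treated minus control (horizontal axis), of the 10 genes described (top row) and of listed genes of the pathway, 1 point a gene, red or blue where limma's adjusted p was below 0.05, with a bar at the median of each list. The 8 genes of the kinase list lie below 0, most E2F target genes lie below 0, and CDKN1A at 0.997 lies beyond all others shown.

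In each class the member with the smallest limma p-value was taken, so these members were chosen on the contrast between groups. Genes with the most similar pattern over the 8 libraries were sought by Pearson's correlation of log2(RPKM + 1). The search covered 12545 genes with a mean of at least 1 RPKM. For CCND1 they were TOP1MT, NOG and VIPAS39 (r = 0.999, 0.997 and 0.997). EDF1, DTNBP1 and SATB1 were nearest to CCNE1, with r of 0.994, 0.993 and 0.992. The genes nearest to CDKN1A were ZNF853, HSF4 and TTC28, with r of 0.999, 0.999 and 0.998. MCTS2P, WASF1 and MORN2 were nearest to CDKN2C, with r of 0.990, 0.972 and 0.970. The 8 libraries share the contrast between groups, and most genes moved with it, so high values are common and carry no test.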

How the data were processed

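RNA-seq values of 8 cultured samples, 4 control and 4 SB-treated, were analysed in 1 table. According to the paper's methods, the authors mapped 50 bp single reads to hg38 with TopHat, counted them per gene with featureCounts 1.5.0, removed genes that did not exceed 1 CPM in 2 samples or more and scaled libraries with TMM in edgeR 3.16.5. TopHat2 2.1.0 is the version in the submitters' processing notes. The authors deposited RPKM values per gene and library. They also deposited log2 fold changes, mean log2 CPM, p-values and FDR of their own comparison, which were not used. Unused columns with values of single samples numbered 0.

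Groups come from the sample titles. The members and lists were chosen with earlier results of these data known. All 10 members are named, as are all genes of the kinase and other INK4 lists, and of the other lists the 2 highest and 2 lowest called genes. The neighbours ORAOV1, INTS8, NDUFAF6 and GPR19 were named for their overlap with a member, after their values were seen. Groups were compared with limma 3.58.1 (R 4.3.3) on log2(RPKM + 1), lmFit and eBayes, without a block, over all 14526 genes with no further filter, and single genes by exact permutation over all 70 splits, two-sided. The authors tested counts, while the deposited RPKM values were tested here. Reads were recovered with Python 3.11.15 from the steps between RPKM values, whole within 0.01 reads for 100% of genes, with whole gene lengths within 0.05 bases. Reads that share a common factor can be understated. The TMM factors were inferred from the RPKM steps and the recovered reads summed over the genes of the table. They match those of the authors only if the authors' library sizes were the same sums. Fits were tested on simulated data. Coordinates and GC content come from GENCODE release 44 on hg38, the authors' build, with a GC value for 91.5% of genes.

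Alternatives were a pseudocount of 0.1, a mean RPKM of at least 1, library sizes without TMM factors, median-of-ratios scaling, an intensity trend, voom on recovered reads, the replicate number as a block, a correction for length and GC content, and leaving out each sample. The value of 1 listed marker gene is not reported here.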

Additional observations from a re-analysis of the deposited data

Results flagged for a closer look

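In groups of 4 libraries, a value is listed here where its gap to the nearest other library, divided by the range of the group, exceeded the 95% critical value of Dixon's test. Chance flags about 1 in 20 groups. Of 102 groups examined, 8 were past it, where chance would give 5.1. Control replicate 1 was the far library for RBL1 (0.832), MYBL2 (0.922), CCNF (0.982), CCNG1 (0.841) and PLK1 (0.911) as well as for CCND3 (0.959), all in the controls. In the SB-treated cells replicate 1 was far for CDKN2A (0.914) and replicate 2 for CCNF (0.838). Of the genes in the main list only CCND3 was among them.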

How the results depend on the processing

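The alternatives were set with earlier results known. The numbers of members higher and lower stayed within 1.5 times of 2 and 4 under them, with 1 exception. With the length and GC correction and the replicate block together, chosen after seeing the data, 4 members were higher, CCNE2, CDKN1A, CDKN1B and CDKN2D. Over all genes with a GC value that fit had 4532 higher and 4830 lower. CCND1, CCNE1, CCNE2, CDKN1A and CDKN1C held direction and call in every alternative run. CDKN1C has no value in the fit of genes with a mean RPKM of at least 1. CCND2 turned to 0.066 without TMM factors, where 65.1% of all calls were higher, against 50.2% with them. In the fits that left out 1 sample, CCND2 ranged from -0.13 to 0.0066 (above 0 without control replicate 3 alone). CDKN2D ranged from -0.023 (without SB-treated replicate 1) to 0.050. Members higher ran from 2 to 3 and members lower from 3 to 6 in these fits. Over all 14526 genes the numbers were 4311 to 5459 and 4285 to 5511. The replicate numbers are shared by both groups, and the deviations of same-numbered replicates correlated at 0.38, 0.327, 0.173 and -0.16, so they were not taken as pairs. With the replicate block 2 members were higher and 3 lower, since CDKN2C had a limma adjusted p-value of 0.053. In the pathway lists 31 genes were then higher and 50 lower, against 4885 and 4894 of all 14526 genes. Depth limits CDKN1C most, since 148.5 reads alone give a counting error of 8.21%.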
